A study of Mus musculus with 12 samples.

Results

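Huntingtin is the protein that carries an expanded glutamine repeat in Huntington's disease (HD). The endogenous mouse gene Htt and 7 genes for proteins that bind it or modify it (Hap1, Hip1, Hip1r, Zdhhc17, Zdhhc13, Pacsin1 and Optn) were chosen by name, as 8 of the 23282 gene rows counted. RNAseq was measured in 12 mouse brain libraries, made from total RNA with a QuantSeq kit, which reads the 3′ end of polyadenylated transcripts. The study compared striatum and cortex of HD mice before and after symptom onset, with WT mice of the same age. R6/2 HD mice carry a transgene of the first exon of human HTT with an expanded repeat under the human promoter, while their own Htt gene is intact. The 13-week groups were post-symptomatic and the 8-week groups were pre-symptomatic, in R6/2 mice and in normal R6/2 littermates (WT). Each HD group of 1 region and 1 age held 2 libraries, and each WT group held 1. All groups shared the tissue source and library kit, and no treatment was given. Whether the libraries came from single or pooled mice is not given in the sources used here.

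Huntingtin is a large scaffold protein that links vesicles to motor proteins and takes part in endocytosis, autophagy and transcription. HAP1 connects it to the dynactin and kinesin machinery, and HIP1 and HIP1R connect clathrin coats to actin. ZDHHC17 (HIP14) and ZDHHC13 (HIP14L) are palmitoyl transferases that add a fatty acid to huntingtin, PACSIN1 shapes membranes during synaptic vesicle recycling, and optineurin is an autophagy receptor that binds RAB8.

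The start of the Htt coding sequence is shown because the R6/2 transgene copies the human counterpart of this exon, while the reads counted here come from the other end of the transcript. It lies in exon 1 of 67 on the plus strand of mm10, at chr5:34761907-34762026, and the start codon is 150627 bases of genome away from the transcript's 3′ end. In capitals are the 7 glutamine codons of the mouse repeat (codons 18 to 24, counted from the start codon), of which 6 are CAG and 1 is CAA.
Htt coding start: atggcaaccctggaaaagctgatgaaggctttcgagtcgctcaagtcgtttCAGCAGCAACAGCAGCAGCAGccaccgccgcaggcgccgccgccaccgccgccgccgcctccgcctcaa
The transgene transcript was not measured apart from Htt here.

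Promoter sequences of Htt and of the members that passed a test are shown next, as windows around a RefSeq transcription start (GRCm38.p6), each mostly upstream of it and printed 5′ to 3′ on the strand of its gene. Of the 8 genes, 7 had at least 1 entry in the RefSeq table, and Zdhhc13 had none. Capitals mark the GC box (GGGCGG or its reverse complement CCGCCC), which Sp1-type factors bind. The Htt window is at chr5:34761490-34761789 (plus strand), and the windows of the 2 Hip1 starts are at chr5:135545073-135545372 and chr5:135489180-135489479 (both minus strand). The Hap1 window shown is at chr11:100356092-100356391 (minus strand), and the Pacsin1 window is at chr17:27684989-27685288 (plus strand). A further Hap1 start, with an overlapping window at chr11:100356079-100356378, is not shown.
Htt: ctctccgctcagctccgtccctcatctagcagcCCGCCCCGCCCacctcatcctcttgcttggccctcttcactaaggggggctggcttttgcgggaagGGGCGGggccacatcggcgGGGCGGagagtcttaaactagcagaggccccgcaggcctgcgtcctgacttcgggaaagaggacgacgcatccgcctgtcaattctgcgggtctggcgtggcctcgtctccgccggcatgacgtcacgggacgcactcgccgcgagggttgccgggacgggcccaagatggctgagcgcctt
Hip1, upstream start: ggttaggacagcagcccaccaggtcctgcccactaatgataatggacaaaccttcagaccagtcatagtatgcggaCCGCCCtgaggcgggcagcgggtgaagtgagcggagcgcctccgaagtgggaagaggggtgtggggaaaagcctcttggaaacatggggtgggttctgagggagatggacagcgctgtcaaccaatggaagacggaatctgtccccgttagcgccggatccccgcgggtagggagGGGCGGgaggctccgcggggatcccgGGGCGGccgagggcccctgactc
Hip1, downstream start: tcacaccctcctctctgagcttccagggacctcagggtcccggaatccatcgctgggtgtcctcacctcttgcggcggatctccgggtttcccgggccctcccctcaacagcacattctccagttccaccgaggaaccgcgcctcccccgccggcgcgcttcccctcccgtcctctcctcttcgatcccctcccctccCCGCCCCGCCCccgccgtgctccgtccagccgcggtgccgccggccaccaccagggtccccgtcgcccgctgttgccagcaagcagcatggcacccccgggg
Hap1: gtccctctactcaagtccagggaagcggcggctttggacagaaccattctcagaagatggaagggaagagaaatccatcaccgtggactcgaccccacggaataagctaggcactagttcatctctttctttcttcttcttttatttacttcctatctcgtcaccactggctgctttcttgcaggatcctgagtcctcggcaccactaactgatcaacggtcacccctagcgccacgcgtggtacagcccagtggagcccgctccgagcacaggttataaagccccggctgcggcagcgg
Pacsin1: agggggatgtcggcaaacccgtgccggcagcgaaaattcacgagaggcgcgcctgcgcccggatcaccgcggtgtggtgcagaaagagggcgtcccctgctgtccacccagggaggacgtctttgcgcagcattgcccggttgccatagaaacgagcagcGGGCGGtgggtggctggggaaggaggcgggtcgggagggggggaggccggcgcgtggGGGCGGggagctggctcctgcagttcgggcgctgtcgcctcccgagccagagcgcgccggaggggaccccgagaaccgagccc
The Htt window held 4 GC boxes, the Hip1 windows 3 and 2, the Pacsin1 window 2 and the Hap1 window 0. At least 1 GC box was present in 35.7% of all 32851 windows of this length. The letters TATAAA, searched on both strands, occurred once in the Hap1 window and in 13.6% of all windows, and TGACGTCA occurred once in the Htt window and in 1.79% of all windows. GC content was 67.3% for Htt, 64.0% and 71.7% for Hip1, 71.7% for Pacsin1 and 54.7% for Hap1, beside a median of 52.7% over all windows. These matches describe letters only.

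Library totals ranged from 8814386 to 12091201 counts. Levels are given as CPM, which are counts scaled to library size with TMM factors, and 3′ counts do not depend on transcript length. The 45S ribosomal RNA row (Rn45s) took 10.5% to 15.2% of the counts in HD libraries and 4.32% to 5.62% in WT libraries. Xist counts were 828 to 1660 in the second replicate of each HD group and in both 13-week WT libraries, and at most 73 in the others, so the WT ages differed in sex. One library stood apart. In pre-symptomatic HD striatum, replicate 2 had a summed level of 2730 CPM over 12 striatal neuron markers against 8379 CPM in replicate 1, 20022 against 3241 CPM over 10 oligodendrocyte markers, and 1894 against 143 CPM over 6 thalamic neuron markers. In post-symptomatic HD cortex, 5 choroid plexus markers summed to 3029 CPM in replicate 2 and 68.7 CPM in replicate 1. In post-symptomatic HD striatum the striatal neuron markers summed to 1638 and 1650 CPM, against 9041 CPM in the WT library of that age. In bulk tissue, fewer cells of a type and less RNA per cell cannot be told apart, and the part of these differences in the results below was not tested.

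All 8 genes were detected in every library and passed the filter on low counts. The plot of member levels gives every value.

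**Figure D1:**
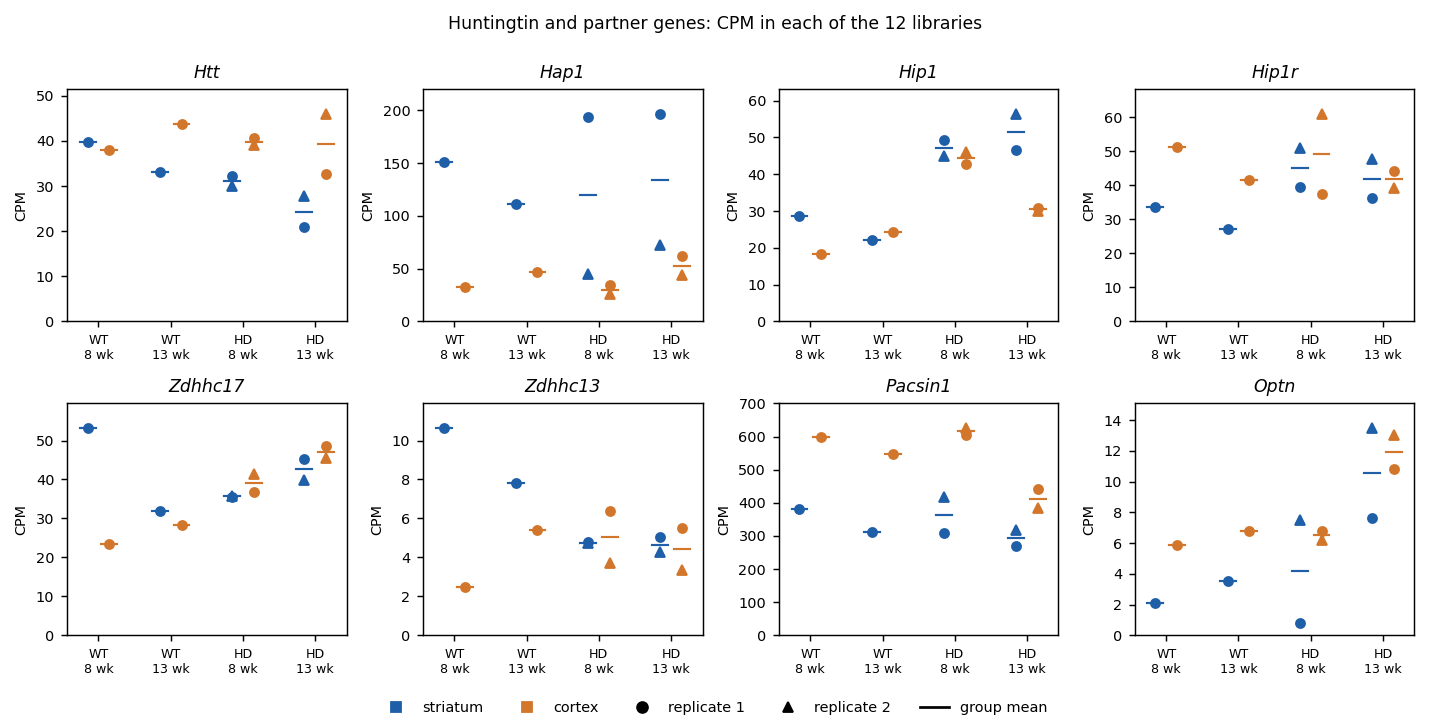
CPM of each of the 8 genes (vertical axis, linear and starting at 0) by genotype and age, with striatum in blue and cortex in orange, 1 point per library and a bar at each group mean. Hip1 is higher in every HD library than in every WT library of its region, and the first Hap1 replicate exceeds the second in all 4 HD groups. How often either holds over all genes was not counted.

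Htt itself lay between 20.8 and 45.9 CPM in all 12 libraries, and no main comparison called it. It was at 39.7 CPM in WT striatum at 8 weeks and 33.1 CPM at 13 weeks, and at 38.0 and 43.7 CPM in WT cortex. In HD striatum it was at 32.2 and 30.0 CPM before onset and at 20.8 and 27.9 CPM after onset. In HD cortex it was at 40.6 and 39.1 CPM before onset and at 32.7 and 45.9 CPM after onset. Both HD libraries lay below the WT library in striatum at each age, while in cortex they lay above it at 8 weeks and on both sides of it at 13 weeks. The level after onset lay below that before onset in HD striatum, and the stages overlapped in HD cortex. How often the stages lie apart over all genes, with 2 libraries each, was not counted. Such separations are therefore descriptions only, here and for the genes below. With CPM on total counts, the 8-week cortex libraries of HD mice lay below the WT library too.

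The fitted difference of Htt between HD and WT mice, averaged over both ages, was -0.22 ± 0.14 (log2, SE) with an adjusted p of 0.355 in the quasi-likelihood test of edgeR, adjusted after Benjamini and Hochberg over all genes, as is every adjusted p here unless another tool is named. In an exact permutation test of genotype within each region and age, two-sided over 81 arrangements, the mean log2 difference was -0.23 (p = 0.148). That test shuffled striatum and cortex separately, and the labels do not say whether regions of the same number came from 1 mouse. If they did, its p-value treats regions of 1 mouse as independent. Differences at the single ages were -0.15 ± 0.20 at 8 weeks (adjusted p = 0.798) and -0.29 ± 0.20 at 13 weeks (adjusted p = 0.439). After against before onset in HD mice, over both regions, the change was -0.18 ± 0.16 (adjusted p = 0.562), with -0.33 in striatum (adjusted p = 0.610) and -0.034 in cortex (adjusted p = 0.972). The striatum was lower than the cortex by -0.40 ± 0.14 over all groups, which did not pass the test (adjusted p = 0.0553), and 6 striatal libraries (20.8 to 39.7 CPM, median 31.1) overlapped 6 cortical ones (32.7 to 45.9 CPM, median 39.8). The region difference in HD less that in WT mice was -0.35 ± 0.28 (adjusted p = 0.699). The Htt gene (chr5:34761740-34912534, plus strand) has its 3′ end inside the gene Msantd1 (chr5:34908012-34923839) on the same strand, which held 4 to 44 counts per library against 224 to 518 for Htt.

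Hip1, the endocytic adaptor, was called higher in HD than in WT mice, and the other 7 genes were not called with all libraries in the fit. In striatum it was at 28.5 CPM (8 weeks) and 22.1 CPM (13 weeks) in WT mice. HD striatum had 49.3 and 45.0 CPM before onset and 46.6 and 56.4 CPM after onset. The lowest HD striatal library was therefore above the highest WT one. In cortex the WT libraries were at 18.3 CPM (8 weeks) and 24.4 CPM (13 weeks). HD cortex had 42.7 and 45.9 CPM before onset and 30.9 and 30.0 CPM after onset. Again the groups did not overlap, and the gap was narrowest in cortex at 13 weeks. How often HD and WT libraries of a region lie apart over all genes was not counted. Such separations of genotypes are descriptions only, here and for the genes below.

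Averaged over both ages, Hip1 was 1.84-fold higher in HD mice (log2 0.88 ± 0.15, SE, adjusted p = 0.00400). This was 1 of 8 members called, with 10.7% of the 14706 genes tested called in the same comparison. At 8 weeks the difference was 2.00-fold (1.001 ± 0.22, adjusted p = 0.0382), again 1 of 8 members, with 2.1% of all genes called. At 13 weeks it was 1.69-fold (0.76 ± 0.22) and did not pass the test (adjusted p = 0.0553), so 0 of 8 members were called beside 7.36% of all genes. The age-averaged call held in all 19 alternatives, from 0.73 to 1.04. The 8-week call was lost when any of 7 single libraries was left out, and with the replicate number or sex as a term. Within regions and ages, log2 ratios of the HD mean to the WT library were 0.73 in striatum and 1.27 in cortex at 8 weeks and 1.22 in striatum and 0.32 in cortex at 13 weeks. Without the HD striatal library that stood apart, the age-averaged difference was 0.91 (adjusted p = 0.00138).

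Within HD mice Hip1 passed no test. In cortex it was at 44.3 ± 2.30 CPM before and 30.5 ± 0.673 CPM after onset (SD, n = 2), and the stages did not overlap. The log2 change there was -0.56 ± 0.18 (adjusted p = 0.203), against 0.15 ± 0.18 in striatum (adjusted p = 0.775). The stage change of striatum exceeded that of cortex by 0.71 ± 0.25, which did not pass the test (adjusted p = 0.9999). With all libraries in the fit, 0% of all genes were called in that comparison. Over both regions the change was -0.20 ± 0.16 (adjusted p = 0.518). Over all 12 libraries, HD and WT, striatum against cortex was 0.37 ± 0.14 (adjusted p = 0.0842). The Hip1 gene spans chr5:135406531-135545120 on the minus strand, and its counts ran from 216 to 526 per library.

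**Figure D2:**
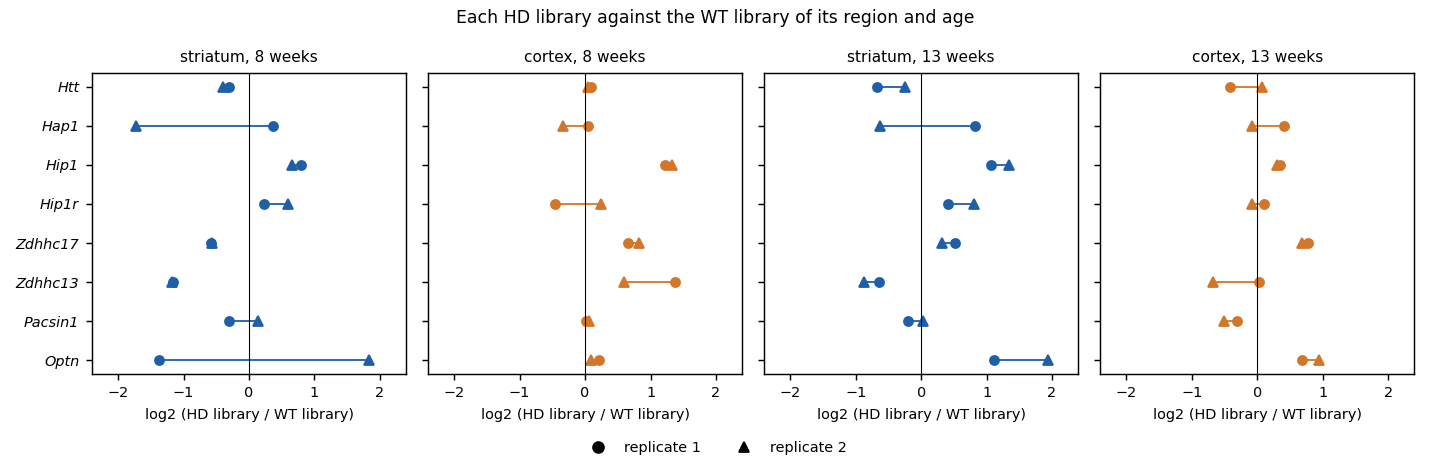
log2 ratio of each HD library to the WT library of its region and age, with 1 row per gene, circles for replicate 1 and triangles for replicate 2. Hip1 is right of 0 in all 4 panels, whereas Hap1 has a library on each side of 0 in every panel.

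Hip1r, the close relative of Hip1 that binds actin and clathrin light chain, was at 33.6 CPM at 8 weeks and 27.3 CPM at 13 weeks in WT striatum and at 51.3 and 41.5 CPM in WT cortex. HD striatum had 39.4 and 50.8 CPM before onset and 36.3 and 47.7 CPM after onset. HD cortex had 37.4 and 60.9 CPM before onset and 44.3 and 39.2 CPM after onset. HD striatum was above WT striatum at each age, and HD cortex lay on both sides of WT cortex. The age-averaged difference between HD and WT mice was 0.24 ± 0.16 (log2, SE, adjusted p = 0.400). The change after onset in HD mice was -0.17 ± 0.18 (adjusted p = 0.640), and striatum against cortex was -0.24 ± 0.15 (adjusted p = 0.317). The 3′ end of Hip1r (chr5:123973628-124005558, plus strand) overlaps Vps37b on the other strand, which held 138 to 492 counts. The use of strand in counting is not given in the sources used here, so reads of this pair cannot be told apart.

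Hap1, the adaptor between huntingtin and motor proteins, had the largest region difference of the 8 genes. WT striatum had 150.5 CPM at 8 weeks and 110.9 CPM at 13 weeks, and WT cortex had 33.1 and 46.4 CPM. HD striatum had 193 and 45.2 CPM before onset and 196 and 72.0 CPM after onset. HD cortex had 34.3 and 26.1 CPM before onset and 61.5 and 44.1 CPM after onset. Replicate 1 was above replicate 2 in each of the 4 HD groups, and the replicates also differed in Xist. The lowest striatal value belonged to the pre-symptomatic HD library that stood apart, and it was the only striatal library within the range of cortex with its 26.1 to 61.5 CPM.

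Hap1 was 3.21-fold higher in striatum than in cortex over all groups (log2 1.68 ± 0.38, SE, adjusted p = 0.0132). With Pacsin1 this made 2 of 8 members called, beside 20.6% of all genes tested. Without the library that stood apart the Hap1 difference was 1.84 (adjusted p = 0.00442), and without the 8-week WT library of striatum or cortex it missed the threshold (adjusted p = 0.0508 and 0.0518). Between HD and WT mice the age-averaged difference was -0.010 ± 0.39 (adjusted p = 0.991), and at 13 weeks it was 0.22 ± 0.56 (adjusted p = 0.866). In all 4 strata of region and age, 1 HD library was above and 1 below the WT library. After onset in HD mice the change was 0.49 ± 0.49 (adjusted p = 0.617), although in HD cortex both later libraries were above both earlier ones. Hap1 lies at chr11:100347327-100356128 on the minus strand.

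Pacsin1, the membrane-shaping partner, was the most abundant of the 8 genes. WT striatum had 382 CPM at 8 weeks and 311 CPM at 13 weeks, and WT cortex had 599 and 547 CPM. HD striatum had 308 and 419 CPM before onset and 270.4 and 318 CPM after onset. HD cortex had 604 and 626 CPM before onset and 441 and 383 CPM after onset. In HD cortex the stages were apart, and the later libraries were also below the WT library of their age. In HD striatum they overlapped.

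Striatum was 1.58-fold lower than cortex in Pacsin1 (log2 -0.66 ± 0.10, SE, adjusted p = 0.000822), a call kept in all 19 alternatives, from -0.71 to -0.59. The 6 striatal libraries (270.4 to 419 CPM) and 6 cortical ones (383 to 626 CPM) overlapped through the pre-symptomatic HD striatal library that stood apart. After onset in HD mice Pacsin1 changed by -0.44 ± 0.14 over both regions (adjusted p = 0.0918), which did not pass the test. It changed by -0.60 ± 0.19 in cortex (adjusted p = 0.206) and by -0.28 ± 0.19 in striatum (adjusted p = 0.595). DESeq2 gave -0.46 over both regions with an adjusted p of 0.0281, and leaving out replicate 1 of pre-symptomatic HD striatum gave -0.56 in edgeR. That fit keeps the library that stood apart as its only earlier striatal library, with 419 CPM against 308 CPM in the one left out. Summed over 8 pan-neuronal markers, the level in HD cortex was 9009 and 8840 CPM before and 5896 and 5568 CPM after onset, against 8057 and 8009 CPM in WT cortex at 8 and 13 weeks. Pan-neuronal markers thus moved the same way as Pacsin1 in HD cortex, and their part in it was not tested. Against WT mice, Pacsin1 differed by -0.13 ± 0.11 averaged over the ages (adjusted p = 0.492) and by -0.25 ± 0.15 at 13 weeks (adjusted p = 0.381). Pacsin1 lies at chr17:27655509-27711482 on the plus strand.

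Zdhhc17, a palmitoyl transferase of huntingtin, had its highest level in 1 WT library. WT striatum had 53.3 CPM at 8 weeks and 31.9 CPM at 13 weeks, and WT cortex had 23.3 and 28.4 CPM. HD striatum had 35.5 and 35.8 CPM before onset and 45.4 and 39.9 CPM after onset. HD cortex had 36.7 and 41.3 CPM before onset and 48.6 and 45.4 CPM after onset. Both later HD libraries were above both earlier ones in each region, a description with no share over all genes beside it. HD libraries were above WT libraries in 3 of 4 strata and below in striatum at 8 weeks, where the WT library had the highest value of all 12.

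The change of Zdhhc17 after onset in HD mice was 0.27 ± 0.12 (log2, SE, adjusted p = 0.213), with 0.29 in striatum (adjusted p = 0.550) and 0.25 in cortex (adjusted p = 0.578). Against WT mice it differed by 0.57 ± 0.25 at 13 weeks (adjusted p = 0.196), by -0.0030 ± 0.25 at 8 weeks (adjusted p = 0.999) and by 0.29 ± 0.18 averaged over the ages (adjusted p = 0.337). Without the 8-week WT striatal library the averaged difference was 0.64 (adjusted p = 0.0171). The region difference in HD less that in WT mice was -0.80 ± 0.27 (adjusted p = 0.409). Striatum against cortex was 0.13 ± 0.16 (adjusted p = 0.624). Zdhhc17 lies at chr10:110941780-111010140 on the minus strand.

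Zdhhc13, the related transferase, was scarce, with 29 to 106 counts per library. WT striatum had 10.7 CPM at 8 weeks and 7.82 CPM at 13 weeks, and WT cortex had 2.46 and 5.41 CPM. HD striatum had 4.77 and 4.72 CPM before onset and 5.02 and 4.29 CPM after onset. HD cortex had 6.38 and 3.70 CPM before onset and 5.53 and 3.37 CPM after onset. HD striatum lay below WT striatum at both ages, and HD cortex lay above WT cortex at 8 weeks. None of this passed a test: the age-averaged difference was -0.40 ± 0.32 (adjusted p = 0.479), that at 13 weeks -0.51 ± 0.45 (adjusted p = 0.557), and the region difference in HD less that in WT mice -1.30 ± 0.56 (adjusted p = 0.476). The change after onset was -0.10 ± 0.30 (adjusted p = 0.884), and striatum against cortex was 0.42 ± 0.31 (adjusted p = 0.383). Zdhhc13 lies at chr7:48789003-48827440 on the plus strand.

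Optn, for optineurin, was also scarce, with 7 to 147 counts. WT striatum had 2.11 CPM at 8 weeks and 3.53 CPM at 13 weeks, and WT cortex had 5.86 and 6.76 CPM. HD striatum had 0.814 and 7.50 CPM before onset and 7.62 and 13.5 CPM after onset. HD cortex had 6.79 and 6.20 CPM before onset and 10.8 and 13.0 CPM after onset. In both regions the HD libraries after onset were above those before onset and above the WT library of their age. The earlier striatal pair lay far apart, and its higher member was the library with high oligodendrocyte and thalamic markers.

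After onset in HD mice Optn changed by 1.09 ± 0.51 over both regions (log2, SE, adjusted p = 0.246), by 1.35 ± 0.78 in striatum (adjusted p = 0.529) and by 0.86 ± 0.76 in cortex (adjusted p = 0.676). Without the striatal library that stood apart, the striatal change was 3.68 (adjusted p = 0.00166), which rests on 1 earlier library with 7 counts. Against WT mice the difference was 1.19 ± 0.60 at 13 weeks (adjusted p = 0.276) and 0.84 ± 0.43 averaged over the ages (adjusted p = 0.246). Striatum against cortex was -0.64 ± 0.39 (adjusted p = 0.291). Optn lies at chr2:5020642-5064051 on the minus strand.

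**Figure D3:**
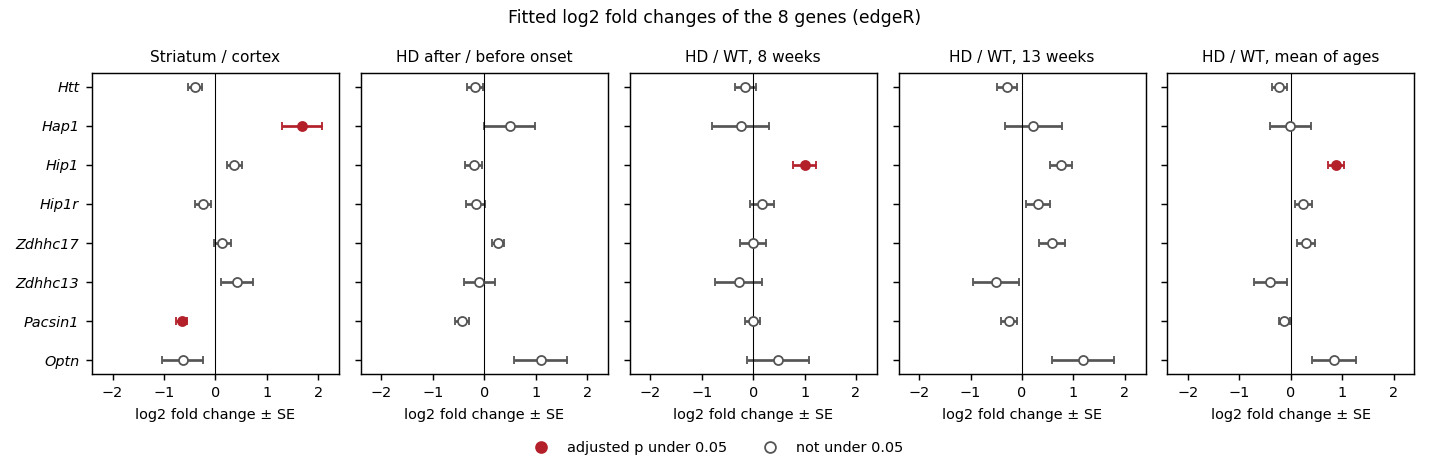
Fitted log2 fold change with its SE (horizontal axis) for each gene in 5 comparisons, filled where the adjusted p was under 0.05. Filled points are Hap1 and Pacsin1 between regions and Hip1 between HD and WT mice at 8 weeks and over both ages, and no point is filled for onset in HD mice.

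Across HD mice, 0 of 8 members were called after against before onset over both regions, beside 6.45% of all genes. DESeq2 called 1 member (Pacsin1) beside 1680 of 13944 genes. In edgeR 2 members (Zdhhc17 and Pacsin1) had an unadjusted p under 0.05. The share of all genes under that threshold was not counted in any comparison, so counts at an unadjusted p are descriptions only. By region, 0 of 8 members were called in striatum (0.16% of all genes) and 0 of 8 in cortex (0.591% of all genes). At an unadjusted p under 0.05 the member counts were 0 and 2. The difference between HD and WT mice in their change with age was called for 0 of 8 members, beside 0.116% of all genes, and no member had an unadjusted p under 0.05 there. For Pacsin1 this value was -0.24 ± 0.22 (adjusted p = 0.845) and for Zdhhc17 0.58 ± 0.35 (adjusted p = 0.694). The region difference in HD less that in WT mice, and the stage change of striatum less that of cortex in HD mice, were each called for 0 of 8 members and 0% of all genes by edgeR, and for 0 members by DESeq2, which called 64 and 17 of all genes. At an unadjusted p under 0.05 there were 2 members (Zdhhc17 and Zdhhc13) in the first and 1 (Hip1) in the second. The 0% of all genes depended on the pre-symptomatic HD striatal pair. Without its replicate 1 edgeR called genes outside the members in both comparisons, and without its replicate 2 it did so in the second. Over the 32 combinations of gene, region and age, both HD libraries were on one side of the WT library in 21, above it in 15 and below in 6. With total-count CPM these counts were 14 above and 9 below, and the median of all genes moved to -0.16 in striatum and -0.12 in cortex at 8 weeks and to 0.097 and 0.094 at 13 weeks. With Rn45s left out of the totals they were 18 above and 6 below, and the medians at 13 weeks were 0.24 in striatum and 0.20 in cortex. Hip1 was above in 4 of 4 strata on each of these scales. The share of such one-sided combinations over all genes was not counted. A single WT library can lie on one side of both HD libraries without a genotype difference, so these counts are descriptions only.

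Other genes of the same pathways were read from 5 lists. After onset in HD mice, 6.45% of all genes were called, and marker genes moved in the same comparison. The median was -0.73 for pan-neuronal (5 of 8 called lower), -1.11 for striatal neuron (4 of 11 lower) and -0.97 for interneuron markers (3 of 7 lower). Glial markers were also below 0, at -0.49 for astrocyte (1 of 8 lower), -0.57 for oligodendrocyte (0 of 10) and -0.23 for microglia markers (0 of 9). Endothelial markers were at 0.064 (0 of 7). The part of all these markers in the changes of the lists was not tested. The palmitoyl transferase list (22 genes tested) held 1 gene higher and 2 lower after onset in HD mice, with a median of -0.35 beside 0.0023 over all genes. Zdhhc20 rose (0.53), and Zdhhc14 (-0.78) and Golga7b (-0.67), an accessory protein of these enzymes, fell, with adjusted p of 0.0428, 0.0131 and 0.0244 in edgeR. Of 15 alternatives the call held in 9 for Zdhhc20, 13 for Zdhhc14 and 10 for Golga7b. Against WT mice, averaged over ages, Zdhhc15 was lower (-0.87, adjusted p = 0.0361, held in 12 of 19 alternatives) and Zdhhc21 higher (0.62, adjusted p = 0.00747). Between regions, 2 of the 22 genes were higher and 4 lower in striatum, beside 20.6% of all genes called. Golga7b was lower by -1.97 (adjusted p = 2.65e-06).

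Of 26 axonal transport genes, 0 were higher and 4 lower after onset in HD mice (6.45% of all genes called), with a median of -0.043. Kalrn, for a protein that binds HAP1, fell by 1.23 on the log2 scale (adjusted p = 0.00484), with group means of 191 ± 69.2 CPM before and 90.7 ± 15.5 CPM after onset in HD striatum and 561 ± 3.46 and 214 ± 5.25 CPM in HD cortex (SD, n = 2). Trak1, a mitochondrial motor adaptor, and Dctn3, a dynactin subunit, fell too (-0.69 and -0.67, adjusted p = 0.0239 and 0.0117). The call held in all 15 alternatives for Kalrn, in 9 for Trak1 and in 13 for Dctn3. Against WT mice over both ages, 2 of 26 were higher and 5 lower, beside 10.7% of all genes called. Pcm1, for a centriolar satellite protein that binds HAP1, was higher by 0.89 (adjusted p = 0.000244), with HD libraries at 153 to 214 CPM and WT libraries at 90.0 to 113 CPM. Kalrn (-0.80) and Dctn3 (-0.63) were lower (adjusted p = 0.00311 and 0.00208).

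Of 23 clathrin endocytosis genes, 1 fell and 0 rose after onset in HD mice (6.45% of all genes called), with a median of -0.12. It was Dnm1, the neuronal dynamin, at -0.51 (adjusted p = 0.0442), and the call held in 9 of 15 alternatives, with adjusted p up to 0.153. Against WT mice over both ages 3 were higher and 2 lower, beside 10.7% of all genes called. The higher ones were the scaffold Itsn1 (0.54, adjusted p = 0.00465), the phosphatase Synj1 (0.53, adjusted p = 0.00290) and Dnm1 (0.51, adjusted p = 0.0272, held in 15 of 19 alternatives). In striatum 9 were lower and 1 higher than in cortex, beside 20.6% of all genes called, with a median of -0.28 beside 0.014 over all genes. Pan-neuronal markers were lower in striatum as well (4 of 8 called, median -0.73), and the median of oligodendrocyte markers was 1.23 (1 of 10 called), and their part in this list was not tested. Sh3gl2 (-1.31), Dnm1 (-1.06) and Snap91 (-1.01), all of synaptic vesicle endocytosis, had adjusted p of 6.94e-05, 8.36e-05 and 3.45e-05 in edgeR. Pacsin1 was lower in striatum as well.

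Of 13 optineurin partners, 0 were called after onset in HD mice (6.45% of all genes called), where 2 had an unadjusted p under 0.05 in edgeR. The share of all genes under that unadjusted threshold was not counted. Against WT mice over both ages 1 of the 13 was higher and 1 lower, beside 10.7% of all genes called. These were the autophagy receptors Tax1bp1 (0.57, adjusted p = 0.00187) and Nbr1 (-0.50, adjusted p = 0.00610). Of 22 other huntingtin interactors, 1 rose and 2 fell after onset, beside 6.45% of all genes called. Rasd2, the striatum-enriched GTPase also called Rhes, fell by 1.86 on the log2 scale (adjusted p = 0.0117), and Dlg4 (PSD-95) fell by 0.82 (adjusted p = 0.0169). The calls held in 13 and 10 of 15 alternatives. Rasd2 was also higher in striatum than in cortex by 2.56 (adjusted p = 2.77e-05), and the striatal neuron markers fell with it in HD striatum. Rasd2 lay at 223 to 509 CPM before and 70.1 to 138 CPM after onset in HD striatum. In HD cortex it lay at 65.6 to 77.7 CPM before and 17.9 to 19.7 CPM after onset. The median change of the striatal neuron markers was -1.81 in HD striatum and -0.11 in HD cortex. Their summed level in HD cortex was 335 CPM in both libraries before and 202 and 200 CPM after onset. Their part in the fall of Rasd2 was not tested. Against WT mice over both ages 6 of the 22 were higher and 1 lower, beside 10.7% of all genes called, with a median of 0.26 beside -0.0091 over all genes. The lower one was Rasd2 (-1.19, adjusted p = 0.00736), and the repressor Rest was higher by 0.69 (adjusted p = 0.0177, held in 16 of 19 alternatives).

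**Figure D4:**
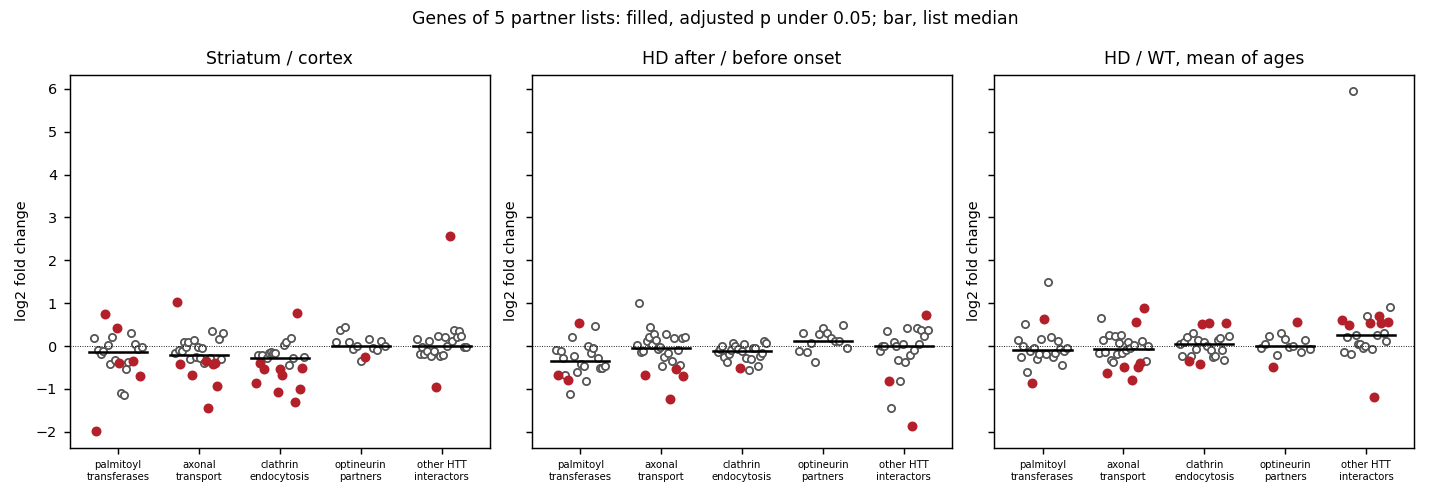
log2 fold change of each gene of the 5 lists (vertical axis) in 3 comparisons, with 1 point per gene, filled where the adjusted p was under 0.05, and a bar at the list median. The clathrin endocytosis list has its median at -0.28 between regions, and the highest filled point between regions is Rasd2, of the other interactors, at 2.56.

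The genes most like each member over the 12 libraries were found by Pearson's correlation of log2 CPM after the mean of each region was removed, among 10776 genes. The libraries share genotype and age, so these values are descriptions. For Htt the closest were Tom1l1 (r = 0.922), Ap2a1 (0.912), a subunit of the AP-2 adaptor of clathrin coats, and Abcb6 (0.907). For Hip1 they included the formin Fmn2 (0.944) and the demethylase gene Kdm1a (0.930). For Hap1 they were Thap11 (0.970), Prmt2 (0.927) and Baiap3 (0.923), and for Pacsin1 Reep2 (0.952), Tnnc1 (0.939) and Serf2 (0.939). The highest values for the others were 0.889 for Hip1r with Dcxr, 0.944 for Zdhhc17 with Fam169a, 0.901 for Zdhhc13 with Tomm34 and 0.969 for Optn with Relb. Among the members the highest was 0.501, between Hip1 and Hip1r, and the lowest was -0.64, between Hip1r and Zdhhc13. No member was among the 3 genes closest to another.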

How the data were processed

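RNAseq libraries were made from brain RNA with a Lexogen QuantSeq kit, per the labels. For each library the authors deposited raw counts, 1 whole number of reads for each gene symbol. The submitters' processing notes name Bowtie2, bedtools and mm10. Versions, annotation and the counting rule are not given in the sources used here. Of 23282 gene rows, 4306 had no count and 44 repeated a symbol. Totals ran from 8814386 to 12091201 counts. The tools named include none for molecular identifiers, so copies of 1 molecule may have been counted more than once.

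Fold changes were fitted to these counts with edgeR 4.0.16 under R 4.3.3 (TMM factors, filterByExpr at 10 counts, quasi-likelihood test in its robust form, Benjamini-Hochberg adjustment over all genes tested, threshold 0.05). HD stages were compared in the 8 HD libraries, either adjusting for region (13944 genes) or with a mean per group (14392 genes). Genotypes and regions were compared in all 12 libraries with terms for region and for genotype with age (14706 genes). The scripts were tested on simulated data. Each WT group had 1 library, so no variation between WT mice of 1 age and region was measured. The labels do not say whether regions of the same number came from 1 mouse or whether replicates were separate mice, and p-values measure only the spread between these libraries.

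Members and lists were chosen with earlier results of these data known. Named were the 8 members, up to 3 genes per list and comparison with the largest change among those called and at 5 CPM or more, and the 3 genes most like each member (CPM plus 0.5, log2). In the prose some of these are given by list counts only. Some genes that this rule names are not reported here. Alternatives were upper-quartile scaling, DESeq2 1.42.0, 2 other filters, the replicate number as a block or (limma 3.58.1) a random block, sex as a term, each library left out, and CPM on other totals. Gene positions came from GENCODE M21 and promoters from RefSeq.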

Additional observations from a re-analysis of the deposited data

Results flagged for a closer look

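Each of 5 differences between strata was noticed because both HD libraries moved one way against the WT library in one region or age and both moved the other way in the second. Each rests on 1 WT library per region and age, and the single differences were not tested. For Zdhhc17 the log2 ratio of HD to WT at 8 weeks was -0.58 in striatum and 0.74 in cortex, a difference of -1.3208. In striatum it was 0.42 at 13 weeks, 0.9987 above that at 8 weeks. For Zdhhc13 the ratio at 8 weeks was -1.17 in striatum and 1.03 in cortex, a difference of -2.2006. For Htt it was -0.35 and 0.066, a difference of -0.4173. For Pacsin1 in cortex it was -0.41 at 13 weeks and 0.039 at 8 weeks, a difference of -0.4467. With CPM on total counts both 8-week HD cortex libraries lay below the WT library for Pacsin1 (-0.11 and -0.068) and for Htt (-0.026 and -0.093), so the opposite direction was not seen on that scale.

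The nearest tests are those over both ages or both regions. The region difference in HD less that in WT mice had an adjusted p of 0.409 for Zdhhc17, 0.476 for Zdhhc13 and 0.699 for Htt in edgeR. The change with age in HD less that in WT mice had an adjusted p of 0.694 for Zdhhc17 and 0.845 for Pacsin1 in edgeR.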

How the results depend on the processing

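Of 887 values of single members under an alternative, 828 kept their direction and their side of the threshold, 11 lost a call, 18 gained one and 30 changed sign without being called in either case, and the cause was not tested. Among pathway genes named, 792 of 925 were kept, 133 lost the call and 0 changed sign. Counts over all genes moved with the setting too, so the member counts below describe the settings only. For HD against WT at 13 weeks, 1082 of 14706 genes were called in the main fit and with upper-quartile scaling. DESeq2 called 1813 there, and voom with a random block called 1194. After onset over both regions DESeq2 called 1680 of 13944 genes, against 900 in the main fit. For HD against WT at 13 weeks, the number of members called rose from 0 to 1 (Hip1) with upper-quartile scaling, with DESeq2 and with voom and a random block, and with a library left out it ranged from 0 to 1 (Hip1 without pre-symptomatic HD striatum replicate 2, Zdhhc17 without either 8-week WT library). At 8 weeks the count of 1 (Hip1) became 0 with the replicate block (log2 1.001, adjusted p = 0.0627) and with sex as a term (adjusted p = 0.0656), and ranged from 0 to 1 with a library left out. Averaged over ages the count was 1 to 2 with a library left out, with Optn added without pre-symptomatic HD striatum replicate 1 (adjusted p = 0.0440) and Zdhhc17 without the 8-week WT striatum. After onset in HD mice, DESeq2 called 1 member (Pacsin1) over both regions, and leaving out a library gave 0 to 1 over both regions, in striatum (Optn) and in cortex (Pacsin1, without either pre-symptomatic HD striatum library). The counts for differences between changes stayed at 0, and between regions the count was 2 to 3 with a library left out. The combinations with both HD libraries on one side numbered 23 with total-count CPM and 24 without Rn45s in the totals, against 21.

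The replicate numbers were not tied to mice by the labels. Correlations of the replicate differences ran from 0.0632 to 0.351 over pairs of HD groups. Htt between regions passed in 3 of 19 alternatives. With the replicate block it passed at -0.40 (adjusted p = 0.0400), and the block changed no other member's call than this and Hip1 at 8 weeks. Hip1 between regions passed with DESeq2 (adjusted p = 0.0483) and without pre-symptomatic HD striatum replicate 2 (adjusted p = 0.0428).

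Sign changes follow. Htt in HD cortex was 0.037 with upper-quartile scaling and -0.31 to 0.20 with a library left out. Hap1 between genotypes was 0.013 with upper-quartile scaling and -0.31 to 0.15 with a library left out, and at 13 weeks -0.40 with sex as a term and -0.021 to 0.50 with a library left out. Zdhhc17 at 8 weeks was 0.00336 with DESeq2, 0.000925 with the 1 CPM filter, 0.091 with voom, 0.00895 with sex and -0.54 to 0.71 with a library left out. With a library left out, Zdhhc17 also ranged from -0.15 to 1.11 in its change with age and from -0.074 to 0.19 between regions, Zdhhc13 from -0.23 to 0.10 after onset and from -0.79 to 0.20 between genotypes, Hip1r from -0.28 to 0.00621 after onset, and Htt from -0.41 to 0.14 at 8 weeks. Optn had no value under the stricter filter, which kept genes with 1 CPM or more in each library. Depth limits Optn and Zdhhc13, with as few as 7 and 29 counts in a library. Counts over all genes moved more. Across the alternatives edgeR, DESeq2 or voom called 211 to 1680 (against 900) genes after onset over both regions, 0 to 1083 (against 23) in striatum and 0 to 1202 (against 85) in cortex, 29 to 1834 (against 1082) between genotypes at 13 weeks, 0 to 674 (against 309) at 8 weeks, 490 to 2307 (against 1572) over both ages and 2043 to 3776 (against 3024) between regions.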
